A study of Mus musculus with 18 samples.

Results

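Leukocytes leave the blood by rolling on selectins, arresting through integrins and binding counter-receptors on the vessel wall, and the genes of this sequence were followed here in mouse muscle injected with single-stranded RNA (ssRNA). The list held 9 genes, namely the integrin chains Itgam, Itgax, Itgal, Itgb2 and Itga4, the endothelial counter-receptors Icam1 and Vcam1, the selectin Selp and its ligand Selplg. They were taken by gene symbol with all their probes, and a gene was described where any probe reached a detection p under 0.05 on 3 or more arrays. Of the 9 genes, 8 met this and stood among 11233 genes tested on the arrays. Itgax, the alpha chain found on dendritic cells and some macrophages, was detected on 0 of 17 arrays by both of its probes and is the 1 gene left out. Itgam lies just inside the threshold with 3 arrays, 2 of A/J ssRNA and 1 of A/J-MyD88 ssRNA.

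P-selectin, stored in platelets and endothelial cells and moved to their surface on activation, binds the glycoprotein encoded by Selplg on leukocytes and slows them. The beta chain encoded by Itgb2 then pairs with the alpha chains of Itgal or Itgam to bind the product of Icam1, and the alpha chain of Itga4 pairs with other beta chains to bind the product of Vcam1. Icam1 and Vcam1 are induced by inflammatory signals in endothelium and are also made by other cells, and integrin chains are found mainly on leukocytes. Muscle that lacks dysferlin, a membrane repair protein of muscle fibres, is known to draw macrophages.

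Total RNA of the tibialis anterior, the shin muscle that lifts the foot, was measured on Illumina bead arrays in 2-month-old mice. Legs were given 3 intramuscular injections in 10 days, of ssRNA on one side and of saline on the other. The 6 groups, of 3 arrays each, were ssRNA and saline muscle of A/J-MyD88 deficient mice (A/J-MyD88 below, lacking both dysferlin and MyD88), of dysferlin-deficient A/J mice, and of dysferlin-sufficient A/JOlaHsd mice, labelled wild-type. MyD88 is an adaptor through which most Toll-like receptors, those for ssRNA among them, signal. The strains are whole-body mutants or inbred strains, so no cell type is singled out, and nothing in the labels says whether arrays of a group came from separate animals. The p values then measure only the spread between these samples, which may be technical.

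Of 18 arrays, 1 of A/JOlaHsd ssRNA (replicate 2) carried no signal and was left out, so that group has 2 arrays. Mean deposited intensity per array lay between 98.1 and 140 in A/J-MyD88, between 121 and 147 in A/J and between 37.4 and 50.2 in A/JOlaHsd, so strain and array signal cannot be told apart in any difference between A/J and A/JOlaHsd. Dysf averaged 6.13 and 6.15 (log2 intensity, ssRNA and saline) in A/J-MyD88, 5.70 and 6.13 in A/J, and 9.49 and 9.60 in A/JOlaHsd. The Myd88 probe was detected on every array of A/J-MyD88, at a mean of 7.68 in ssRNA and 7.60 in saline legs, and since its place relative to the deleted part is not given in the sources used here it does not check that label. All 8 of the listed skeletal muscle genes were tested, and none was called in any of the 3 responses. Of all genes 0% were called in A/J-MyD88, 12.4% rose and 10.0% fell in A/J, and 1.90% were called in A/JOlaHsd. Values below are log2 intensities after background correction and quantile normalization with an offset of 16, each member by its best probe, and levels of different genes are not compared.

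In A/J muscle 5 of the 8 genes rose with ssRNA and none fell, where 12.4% of all genes tested rose and 10.0% fell (limma, adjusted p under 0.05 over 11233 genes). They were Selplg, Vcam1, Icam1, Itgb2 and Itga4, with log2 differences between 0.43 and 2.40. All 8 had every A/J ssRNA array above every A/J saline array, against 20.6% of all genes. Itgam passed the detection filter only through ssRNA arrays, so its place in this count is partly set by the filter. In A/J-MyD88 muscle 0 of the 8 were called, 0 had an unadjusted p under 0.05, and the adjusted p was 1 for each, where 0% of all genes were called and 131 genes had an unadjusted p under 0.05. In A/JOlaHsd muscle 0 of the 8 were called, against 1.90% of all genes in either direction, and 1 of the 8 had an unadjusted p under 0.05, as did 1582 of the 11233 genes. In whole muscle, fewer cells of a type and less RNA per cell cannot be told apart.

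**Figure D1:**
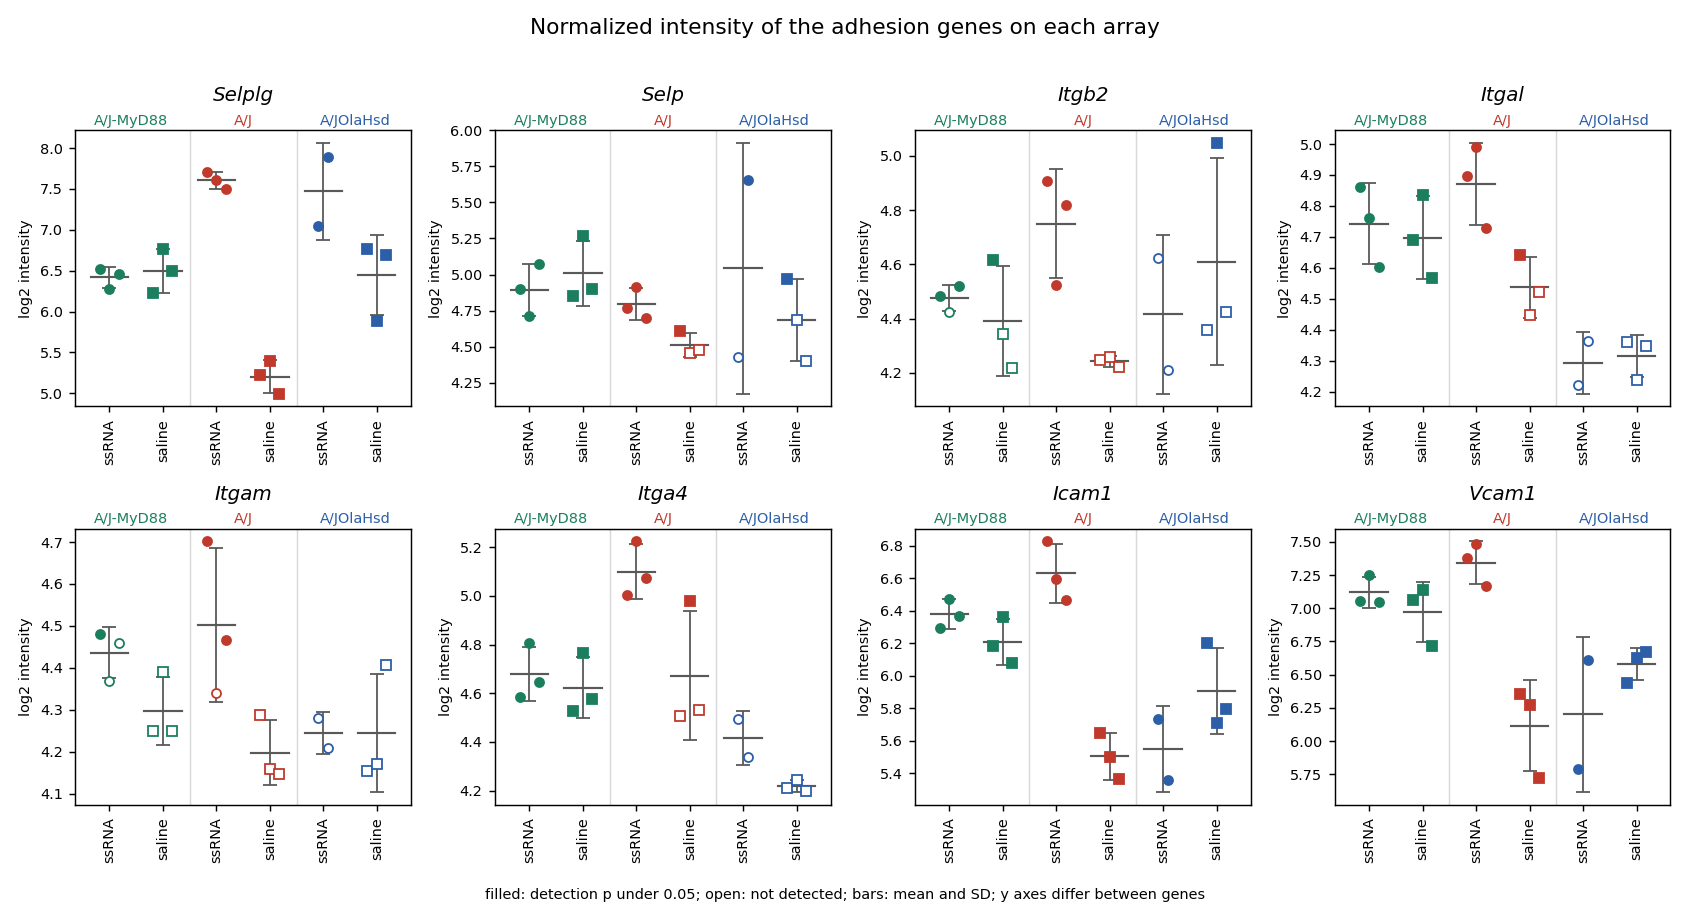
Normalized log2 intensity of the 8 genes on each of the 17 arrays with signal, with ssRNA (circles) left of saline (squares) in each strain, filled where the detection p was under 0.05, and bars for the group mean and SD. In A/J, the 3 ssRNA arrays lie above the 3 saline arrays for each gene, while in A/J-MyD88 the ranges overlap for each gene.

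Selplg, the selectin ligand, had the largest response of the 8 genes in A/J. It read 7.70, 7.60 and 7.50 on the A/J ssRNA arrays, against 5.23, 5.39 and 4.99 on the A/J saline arrays. The groups lay far apart beside the spread within each, and the fit gave a difference of 2.40 ± 0.23 (SE), 5.28-fold, with an adjusted p of 6.94e-06 (limma). A second probe of Selplg, with lower signal, read 5.88, 5.32 and 5.23 in A/J ssRNA, against 4.58, 4.29 and 4.42 in A/J saline, a difference of 1.04 ± 0.19 with an adjusted p of 0.0011 over all probes (limma).

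In A/JOlaHsd, Selplg read 7.05 and 7.89 in ssRNA legs, against 6.77, 5.88 and 6.69 in saline legs. Both ssRNA arrays lay above the saline arrays, and the difference of 1.03 ± 0.26 had an adjusted p of 0.0556 (limma). It was 0.0319 without saline replicate 1 and 0.0287 without saline replicate 3. Each ssRNA array alone, with the spread taken from the other groups, gave 1.44 without ssRNA replicate 1 (adjusted p 0.0108) and 0.61 without replicate 3 (0.365). The second probe of Selplg gave -0.39 ± 0.21 there (adjusted p 0.41, limma), so the 2 probes differ in sign in A/JOlaHsd. In A/J-MyD88, Selplg read 6.52, 6.27 and 6.46 with ssRNA and 6.23, 6.77 and 6.49 with saline, and the ranges overlapped, with a difference of -0.08 (95% interval -0.57 to 0.42).

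Between strains, the response of Selplg in A/J exceeded that in A/JOlaHsd by 1.37 ± 0.35 (adjusted p 0.0285, limma). This call was lost without A/JOlaHsd saline replicate 3 (0.0512), A/JOlaHsd ssRNA replicate 1 (0.122, with 1 array left in that group), A/J saline replicate 3 (0.0794), or any A/J ssRNA array (0.061, 0.0506 and 0.052 for replicates 1, 2 and 3), and it was 0.0505 for Selplg with no detection filter and 0.0859 with only the compared arrays. The Selplg response of A/J-MyD88 lay below that of A/J (-2.48 ± 0.33, adjusted p 0.000502, limma). The saline legs of the strains differed as well. Selplg in saline muscle of A/J-MyD88 exceeded that of A/J by 1.29 ± 0.23 (adjusted p 0.00386, limma), and saline muscle of A/J lay below A/JOlaHsd, at -1.24 ± 0.23 (adjusted p 0.000458, limma). With arrays scaled by their medians instead, that last Selplg difference was -0.12 with an adjusted p of 0.684. In ssRNA muscle Selplg of A/J-MyD88 lay below that of A/J, at -1.19 ± 0.23 (adjusted p 0.00911, limma). The second probe gave smaller differences that were not called, -0.51 ± 0.19 in ssRNA muscle (adjusted p 0.135 over all probes, limma) and 0.69 ± 0.19 in saline muscle (0.0511), between A/J-MyD88 and A/J. The group means of Selplg (ssRNA and saline) were 6.42 and 6.50 in A/J-MyD88, 7.60 and 5.20 in A/J, and 7.47 and 6.45 in A/JOlaHsd. The A/J and A/JOlaHsd ssRNA groups stood highest and overlapped in range, both A/J-MyD88 groups and A/JOlaHsd saline came next and overlapped, and the A/J saline arrays lay below all others.

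Selp, which encodes P-selectin itself, was not called in any of the 8 comparisons. It read 4.77, 4.92 and 4.70 in A/J ssRNA legs, against 4.61, 4.46 and 4.48 in A/J saline legs, with 3 of 3 and 1 of 3 arrays detected. The arrays did not overlap, but the difference of 0.28 (95% interval -0.21 to 0.78) had an adjusted p of 0.438 (limma). In A/JOlaHsd it read 4.43 and 5.66 with ssRNA, and 4.97, 4.68 and 4.40 with saline, so that 1 ssRNA array was the highest of the 5 and the other the second lowest. Without ssRNA replicate 1, the Selp difference in A/JOlaHsd was 0.97 with an adjusted p of 0.0215 (limma), resting on 1 ssRNA array. In A/J-MyD88 the values were 4.90, 4.71 and 5.07 with ssRNA and 4.85, 5.27 and 4.90 with saline, detected on all 6 arrays. The group means of Selp (ssRNA and saline) were 4.89 and 5.01 in A/J-MyD88, 4.79 and 4.51 in A/J, and 5.04 and 4.69 in A/JOlaHsd, and each pair of neighbours in their order overlapped in range.

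The integrin chains lay close to background, and their A/J differences were smaller than that of Selplg. Itgb2, the beta chain shared by the Itgal, Itgam and Itgax products, read 4.91, 4.52 and 4.82 in A/J ssRNA legs, detected on all 3 arrays. In A/J saline legs it read 4.25, 4.26 and 4.22 and was detected on none, so only a bound holds for the lower side. By group means Itgb2 was at least 1.15-fold higher with ssRNA, a bound that leaves out the spread between arrays. Such a bound sets the bright group's mean against the smallest detected signal of each array of the dim group. The fitted difference for Itgb2 was 0.51 ± 0.17 (adjusted p 0.0465, limma). This call was lost without any of the A/J saline arrays (adjusted p 0.101, 0.0824 and 0.123 for Itgb2 without replicates 1, 2 and 3), without A/J ssRNA replicate 1 (0.159) or 3 (0.135), and with no detection filter (0.0753).

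Outside A/J, Itgb2 did not pass the test in any comparison. It read 4.48, 4.43 and 4.52 in A/J-MyD88 ssRNA legs and 4.62, 4.34 and 4.22 in A/J-MyD88 saline legs, detected on 2 and 1 arrays. In A/JOlaHsd it read 4.62 and 4.21 with ssRNA, detected on neither array, and 4.36, 5.05 and 4.42 with saline, where replicate 2 alone was detected. That array was the highest of the 17 only after normalization. Its deposited Itgb2 signal was 5.31, against 24.3, 9.74 and 18.2 on the A/J ssRNA arrays. The Itgb2 response differed between A/J and A/JOlaHsd by 0.70 (95% interval 0.15 to 1.26, adjusted p 0.109) and between A/J-MyD88 and A/J by -0.42 (-0.95 to 0.098, adjusted p 0.319), neither called by limma. In saline legs the Itgb2 difference of A/J against A/JOlaHsd was -0.37 (adjusted p 0.0946, limma), and 0.0374 without A/JOlaHsd saline replicate 1. Group means of Itgb2 (ssRNA and saline) were 4.48 and 4.39 in A/J-MyD88, 4.75 and 4.24 in A/J, and 4.42 and 4.61 in A/JOlaHsd, highest in A/J ssRNA and lowest in A/J saline. Each pair of neighbours in this order overlapped in range.

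Itgal, the alpha chain of the integrin that lymphocytes use most to bind ICAM-1, read 4.90, 4.99 and 4.73 in A/J ssRNA legs, against 4.64, 4.45 and 4.52 in A/J saline legs. It was detected on 3 and 1 arrays, the groups did not overlap, and the difference of 0.34 ± 0.12 had an adjusted p of 0.0505 (limma). Itgal was called under 6 of 15 alternatives, among them median scaling (0.54, adjusted p 0.00797) and A/J ssRNA replicate 3 left out (0.0474), and its adjusted p reached 1 with all 18 arrays. In A/J-MyD88 it was detected on all 6 arrays, at 4.86, 4.76 and 4.60 with ssRNA and 4.69, 4.84 and 4.57 with saline, and in A/JOlaHsd it was detected on none, at 4.22 and 4.36 with ssRNA and 4.36, 4.24 and 4.35 with saline. Means of Itgal (ssRNA and saline) were 4.74 and 4.70 in A/J-MyD88, 4.87 and 4.54 in A/J, and 4.29 and 4.31 in A/JOlaHsd. In their order the first 4 groups, of A/J and A/J-MyD88, overlapped with their neighbours and lay clear of both A/JOlaHsd groups.

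Itgam, the alpha chain of the integrin of neutrophils, monocytes and macrophages, was detected on 2 A/J ssRNA arrays and on 1 A/J-MyD88 ssRNA array, and on no saline array. It read 4.70, 4.34 and 4.47 in A/J ssRNA legs, against 4.29, 4.16 and 4.15 in A/J saline legs. The difference of 0.31 ± 0.12 had an adjusted p of 0.0732 (limma), and Itgam too was called under 6 of 15 alternatives, with adjusted p between 0.00326 with the authors' normalized values and 0.62 with all 18 arrays. The A/J-MyD88 arrays read 4.48, 4.37 and 4.46 with ssRNA and 4.25, 4.39 and 4.25 with saline, and the A/JOlaHsd arrays 4.28 and 4.21 with ssRNA and 4.16, 4.17 and 4.41 with saline. The Itgam means lay between 4.50 in A/J ssRNA and 4.20 in A/J saline, each pair of neighbouring groups in their order overlapped, and no fold change is given for a gene so near background. Itgax stayed below detection throughout, and without the detection filter its A/J difference was 0.12 ± 0.08 (adjusted p 0.555, limma).

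Itga4, the alpha chain that binds VCAM-1, read 5.001, 5.22 and 5.07 in A/J ssRNA legs, against 4.51, 4.98 and 4.53 in A/J saline legs, with 3 and 1 arrays detected. The lowest ssRNA array lay just above the highest saline array, and the difference was 0.43 ± 0.13, with an adjusted p of 0.0294 (limma). The Itga4 call was lost without A/J saline replicate 1 (0.126) or 3 (0.132), without A/J ssRNA replicate 2 (0.11) or 3 (0.0689), with no background correction (0.0544), and with only the compared arrays (0.0597). A single probe of 6 carried it, annotated to a full-length cDNA clone, and of the other 5 probes 2 were detected on 1 array each, of A/J ssRNA, and 3 on none. The Itga4 probes annotated to its RefSeq transcript were among those 5, detected on 1, 0 and 0 arrays, so they do not bear out the rise.

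In A/J-MyD88, Itga4 read 4.59, 4.80 and 4.65 with ssRNA and 4.53, 4.76 and 4.58 with saline, detected on all 6 arrays with overlapping ranges. In A/JOlaHsd it was detected on none, at 4.50 and 4.34 with ssRNA and 4.21, 4.25 and 4.20 with saline. With 1 and 0 arrays detected, the fitted difference of Itga4 between saline muscle of A/J and A/JOlaHsd was 0.45 ± 0.13 (adjusted p 0.0104, limma) and no fold is given, a call lost without A/J saline replicate 2 (0.0626) and with only the compared arrays (0.07). The Itga4 response was not called between strains, with adjusted p of 0.247 for A/J-MyD88 against A/J and 0.514 for A/J against A/JOlaHsd (limma). Means of Itga4 (ssRNA and saline) were 4.68 and 4.62 in A/J-MyD88, 5.10 and 4.67 in A/J, and 4.42 and 4.22 in A/JOlaHsd. A/J ssRNA stood highest, clear of the next group, A/J saline and the A/J-MyD88 groups overlapped, and the A/JOlaHsd groups lay below, apart from each other.

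Of the 9 genes, 5 had an entry in the RefSeq promoter table of build GRCm38.p6 (Selp, Itga4, Itgam, Itgax and Icam1), and the 250 bases before the start are shown for the members among them that rose in A/J, Icam1 on the plus strand at chr9:21015690-21015939 and Itga4 on the plus strand at chr2:79255176-79255425. Capitals mark each match, on either strand, to GGNNNTTCC, a short form of the site bound by NF-kappaB, the factor that Toll-like receptor signals activate.
Icam1: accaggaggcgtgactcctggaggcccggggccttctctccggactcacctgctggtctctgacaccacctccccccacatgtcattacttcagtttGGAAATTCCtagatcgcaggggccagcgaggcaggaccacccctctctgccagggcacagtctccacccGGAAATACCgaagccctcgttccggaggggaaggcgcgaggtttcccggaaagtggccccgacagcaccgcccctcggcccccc
Itga4: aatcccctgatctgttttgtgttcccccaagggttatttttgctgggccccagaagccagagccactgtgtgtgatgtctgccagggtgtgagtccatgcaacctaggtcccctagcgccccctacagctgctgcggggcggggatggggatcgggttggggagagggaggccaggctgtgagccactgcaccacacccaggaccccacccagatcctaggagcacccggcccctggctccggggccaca

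Icam1 holds 2 such places, from base 153 to 145 and from base 84 to 76 before its start, and Itga4 holds 0. Of the 5 promoters 2 hold a match (Icam1 and Selp), beside 15.7% of 32851 promoters of this length. The Icam1 stretch also holds 1 match to TTCNNNGAA, the gamma-activated element bound by STAT factors, from base 42 to 34, found in 7.02% of promoters. Neither shows TATAAA (12.4% of promoters, 0 of the 5) or GAGGAA (23.3%, present in Itgam), on either strand. A match describes letters and shows no binding.

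Icam1, the counter-receptor of the Itgb2 integrins, was detected on all 17 arrays. It read 6.83, 6.59 and 6.47 in A/J ssRNA legs, against 5.65, 5.50 and 5.36 in A/J saline legs. The lowest ssRNA array lay well above the highest saline array, and Icam1 rose by 1.12 ± 0.15, 2.18-fold (adjusted p 8.32e-05, limma). In A/J-MyD88 it read 6.29, 6.47 and 6.37 with ssRNA and 6.18, 6.36 and 6.08 with saline, overlapping, with a difference of 0.17 (95% interval -0.15 to 0.49). In A/JOlaHsd it read 5.74 and 5.36 with ssRNA and 6.20, 5.71 and 5.80 with saline, a difference of -0.35 (-0.72 to 0.0080, adjusted p 0.369, limma).

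The Icam1 response of A/J exceeded that of A/JOlaHsd by 1.48 ± 0.23 (adjusted p 0.00407, limma) and the A/J-MyD88 response lay below that of A/J (-0.95 ± 0.22, adjusted p 0.0109). Icam1 in saline muscle of A/J-MyD88 exceeded A/J by 0.70 ± 0.15 (adjusted p 0.0128, limma), a call lost without A/J saline replicate 3 (0.0814) or A/J-MyD88 saline replicate 2 (0.0946). Saline muscle of A/J lay below that of A/JOlaHsd for Icam1 (-0.40 ± 0.15, adjusted p 0.0424, limma). That Icam1 call was lost without A/JOlaHsd saline replicate 1 (0.186, with a difference of -0.25), A/J saline replicate 2 (0.0837) or 3 (0.144), with no background correction (0.0525), no filter (0.0529) or only the compared arrays (0.119), and with median scaling its sign turned, to 0.61 with an adjusted p of 0.00509. Group means of Icam1 (ssRNA and saline) were 6.38 and 6.21 in A/J-MyD88, 6.63 and 5.51 in A/J, and 5.55 and 5.90 in A/JOlaHsd, highest in A/J ssRNA and lowest in A/J saline, each pair of neighbours overlapping in range.

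Vcam1, the counter-receptor of the Itga4 integrins, was likewise detected on all 17 arrays by 1 of its 4 probes. It read 7.38, 7.48 and 7.17 in A/J ssRNA legs, against 6.35, 6.27 and 5.72 in A/J saline legs. The groups were again apart, and Vcam1 rose by 1.23 ± 0.20, 2.34-fold (adjusted p 0.00043, limma). In A/J-MyD88 it read 7.05, 7.25 and 7.05 with ssRNA and 7.06, 7.14 and 6.72 with saline, overlapping, with a difference of 0.15 (95% interval -0.28 to 0.58). In A/JOlaHsd it read 5.79 and 6.61 with ssRNA and 6.44, 6.63 and 6.67 with saline, a difference of -0.38 (-0.85 to 0.10, adjusted p 0.495, limma).

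The Vcam1 response of A/J exceeded that of A/JOlaHsd by 1.60 ± 0.30 (adjusted p 0.00893, limma). The A/J-MyD88 response lay below that of A/J for Vcam1 (-1.08 ± 0.28, adjusted p 0.0243, limma). Without single arrays that Vcam1 call was lost 7 times, for A/J saline replicate 3 (0.0732), A/J ssRNA replicates 1 (0.0527) and 2 (0.0576), A/J-MyD88 saline replicates 1 (0.06) and 2 (0.0751), and A/J-MyD88 ssRNA replicates 1 (0.0548) and 3 (0.0549). Vcam1 in saline muscle of A/J-MyD88 exceeded A/J by 0.86 ± 0.20 (adjusted p 0.0192, limma), lost without A/J saline replicate 3 (0.125) or A/J-MyD88 saline replicate 1 (0.0744) or 2 (0.124). A/J against A/JOlaHsd saline gave -0.46 ± 0.20 for Vcam1 (adjusted p 0.0705, limma), 0.049 without A/J saline replicate 1, and with median scaling 0.79 with an adjusted p of 0.00398, of the opposite sign. Means of Vcam1 (ssRNA and saline) were 7.12 and 6.97 in A/J-MyD88, 7.34 and 6.12 in A/J, and 6.20 and 6.58 in A/JOlaHsd. A/J ssRNA and the A/J-MyD88 groups overlapped with their neighbours in the order and lay clear of the other 3 groups, which overlapped in turn.

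**Figure D2:**
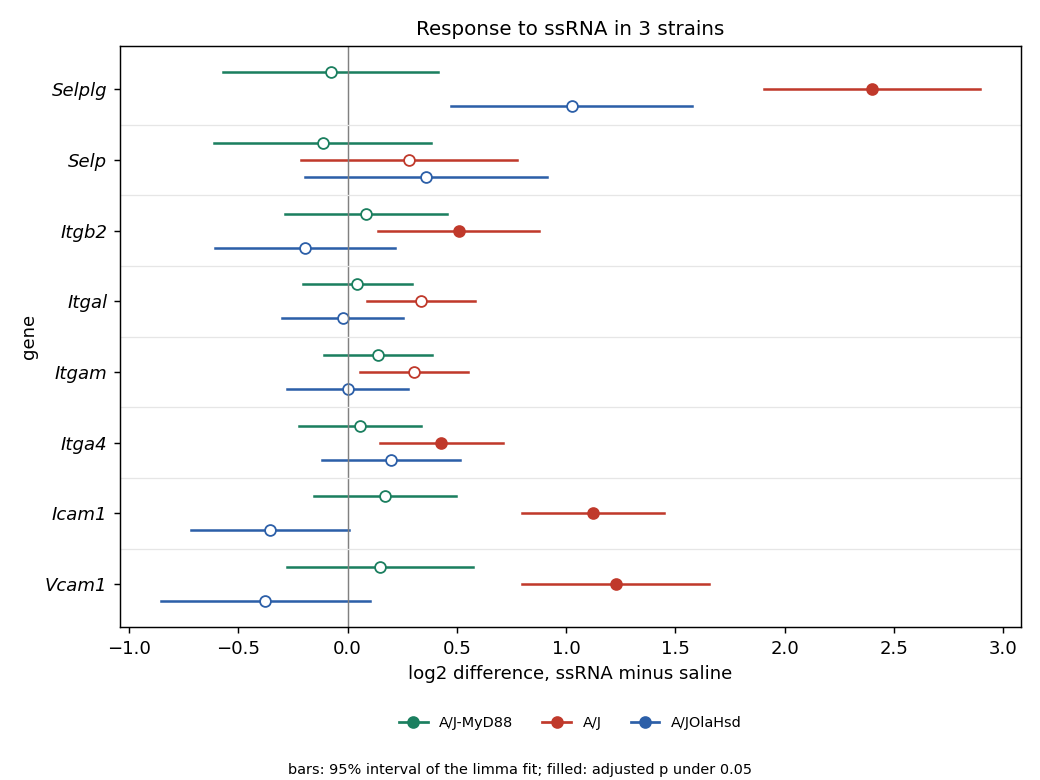
Log2 difference of ssRNA minus saline muscle for the 8 genes in A/J-MyD88, A/J and A/JOlaHsd, with bars for the 95% interval of the limma fit and filled points for an adjusted p under 0.05. Filled points occur only in A/J, for Selplg (2.40), Vcam1 (1.23), Icam1 (1.12), Itgb2 (0.51) and Itga4 (0.43), and all A/J-MyD88 intervals span 0. Of all genes 12.4% rose in A/J and 0% were called in A/J-MyD88.

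Counted over the 8 genes, the response of A/J exceeded that of A/JOlaHsd for 3 genes (Icam1, Vcam1 and Selplg) and was below it for none, where 4.93% of all genes were called in that direction and 2.64% in the other. The response of A/J-MyD88 was below that of A/J for the same 3 genes and above it for none, where 6.85% of all genes were lower and 3.34% higher. Both comparisons use the A/J arrays. Median log2 responses over the 8 genes were 0.070 in A/J-MyD88, 0.47 in A/J and -0.011 in A/JOlaHsd, beside 0.014, -0.053 and -0.00053 for all genes.

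The saline legs differed between strains. In saline muscle A/J-MyD88 exceeded A/J for 3 of the 8 genes and lay below it for none, where 4.39% of all genes were higher and 0.988% lower, and the 3 were again Icam1, Vcam1 and Selplg. In ssRNA muscle A/J-MyD88 lay below A/J for 1 gene, Selplg, and above it for none, where 3.02% of all genes were lower and 2.64% higher. For Icam1 and Vcam1 the ssRNA muscle of A/J-MyD88 and A/J differed by -0.25 (95% interval -0.57 to 0.073) and -0.22 (-0.65 to 0.20). Between saline muscle of A/J and A/JOlaHsd 1 gene was higher (Itga4) and 2 were lower (Icam1 and Selplg), where 22.3% and 24.9% of all genes were called, so these shares are near the background.

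**Figure D3:**
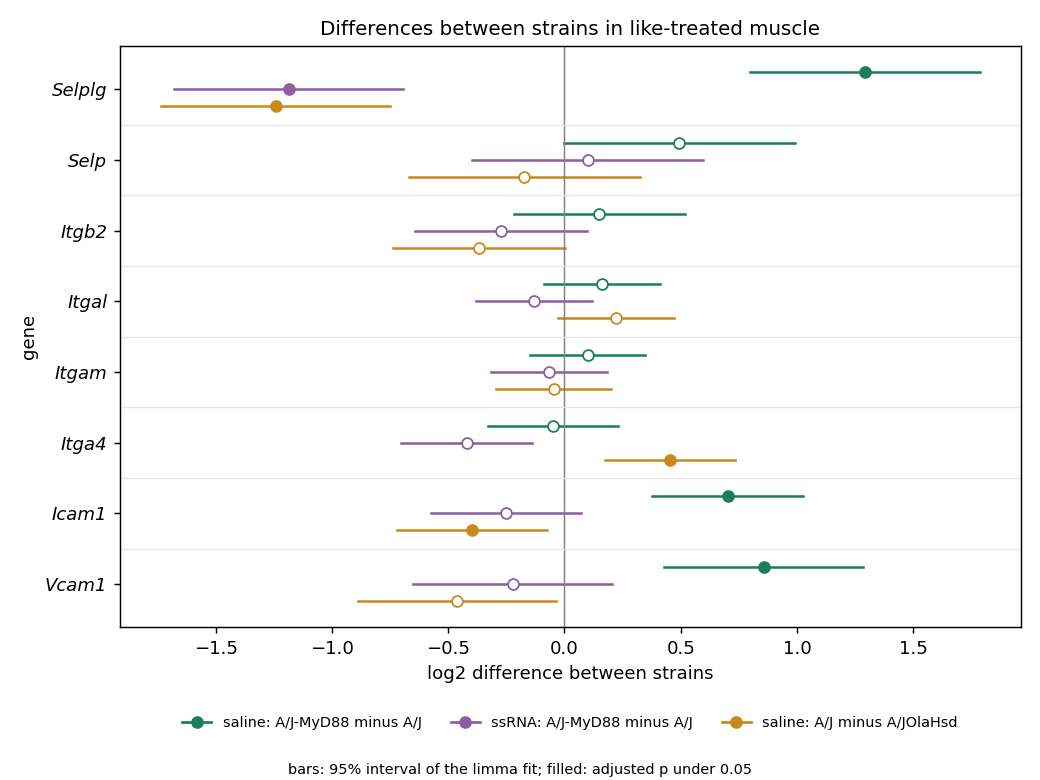
Log2 differences between strains for the 8 genes, in saline muscle (A/J-MyD88 minus A/J, and A/J minus A/JOlaHsd) and in ssRNA muscle (A/J-MyD88 minus A/J), with bars for the 95% interval of the limma fit and filled points for an adjusted p under 0.05. Selplg stands at 1.29 in saline and -1.19 in ssRNA muscle for A/J-MyD88 minus A/J, and Icam1 and Vcam1 stand at 0.70 and 0.86 in saline muscle.

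A wider list of 58 genes of leukocyte adhesion (other integrin chains, selectin-ligand enzymes, junction proteins and the signalling proteins that activate integrins) gave 45 genes tested. In A/J 17 of the 45 rose and 1 fell, where 12.4% of all genes rose and 10.0% fell, with a median difference of 0.19, beside -0.05 for all genes. The 6 largest were Fyb (2.57 ± 0.29), an adaptor in integrin activation of T cells, Sirpa (2.53 ± 0.29), the myeloid receptor for the product of Cd47, Cytip (2.26 ± 0.23), a cytohesin-binding protein of leukocytes, Itgb7 (1.91 ± 0.18), a beta chain that pairs with the Itga4 product, Rassf5 (1.89 ± 0.24), a Rap effector that activates the Itgal integrin, and Cd44 (1.78 ± 0.24), a hyaluronan receptor. Their adjusted p lay between 4.98e-06 for Itgb7 and 8.82e-05 for Cd44 (limma). The gene that fell was Rasgrp2 (-0.28 ± 0.10, adjusted p 0.0458), an exchange factor for Rap proteins. Sele, the endothelial selectin, was detected on 0 arrays.

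In A/J-MyD88 0 of the 45 adhesion genes were called, where 0% of all genes were called. Their median there was -0.0049, and the largest differences were Podxl (0.33 ± 0.20) and Itga6 (-0.27 ± 0.23), both at an adjusted p of 1. In A/JOlaHsd 3 rose, Itgb7 (1.33 ± 0.20, adjusted p 0.00321), Cytip (1.14 ± 0.26, 0.0344) and Apbb1ip (0.77 ± 0.16, 0.0209), a Rap effector, and none fell, where 1.90% of all genes were called in either direction. The response of A/J exceeded that of A/JOlaHsd for 8 genes and was below it for 0 (4.93% and 2.64% of all genes), led by Sirpa (2.24 ± 0.44), Fermt3 (1.97 ± 0.30), which encodes the kindlin of blood cells, Cd44 (1.62 ± 0.36) and Thy1 (1.22 ± 0.34). The response of A/J-MyD88 was below that of A/J for 14 (6.85% of all genes), led by Fyb (-2.76 ± 0.41), Sirpa (-2.43 ± 0.41), Cytip (-2.27 ± 0.33) and Itgb7 (-1.93 ± 0.25), and above it for 1, Rasgrp2 (3.34% of all genes).

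Between saline legs, A/J-MyD88 exceeded A/J for 12 of the 45 genes (4.39% of all genes), led by Sirpa (1.92 ± 0.29), Cd44 (1.37 ± 0.24), Fyb (1.31 ± 0.29) and Vav1 (1.23 ± 0.25), an exchange factor of blood cells, and lay below it for 1, Rasgrp2 (0.988% of all genes). In ssRNA legs A/J-MyD88 lay below A/J for 6 (3.02% of all genes), led by Fyb (-1.45 ± 0.29), Itgb7 (-1.11 ± 0.18), Cytip (-1.08 ± 0.23) and Fermt3 (-0.77 ± 0.20), and above it for none (2.64%). Between saline legs of A/J and A/JOlaHsd 9 of 45 were higher and 12 lower, near the 22.3% and 24.9% of all genes, with Itgb5 (1.28 ± 0.21), Cytip (-1.28 ± 0.23), Itga6 (1.24 ± 0.23), a laminin receptor chain, and Thy1 (-1.10 ± 0.23) the largest.

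**Figure D4:**
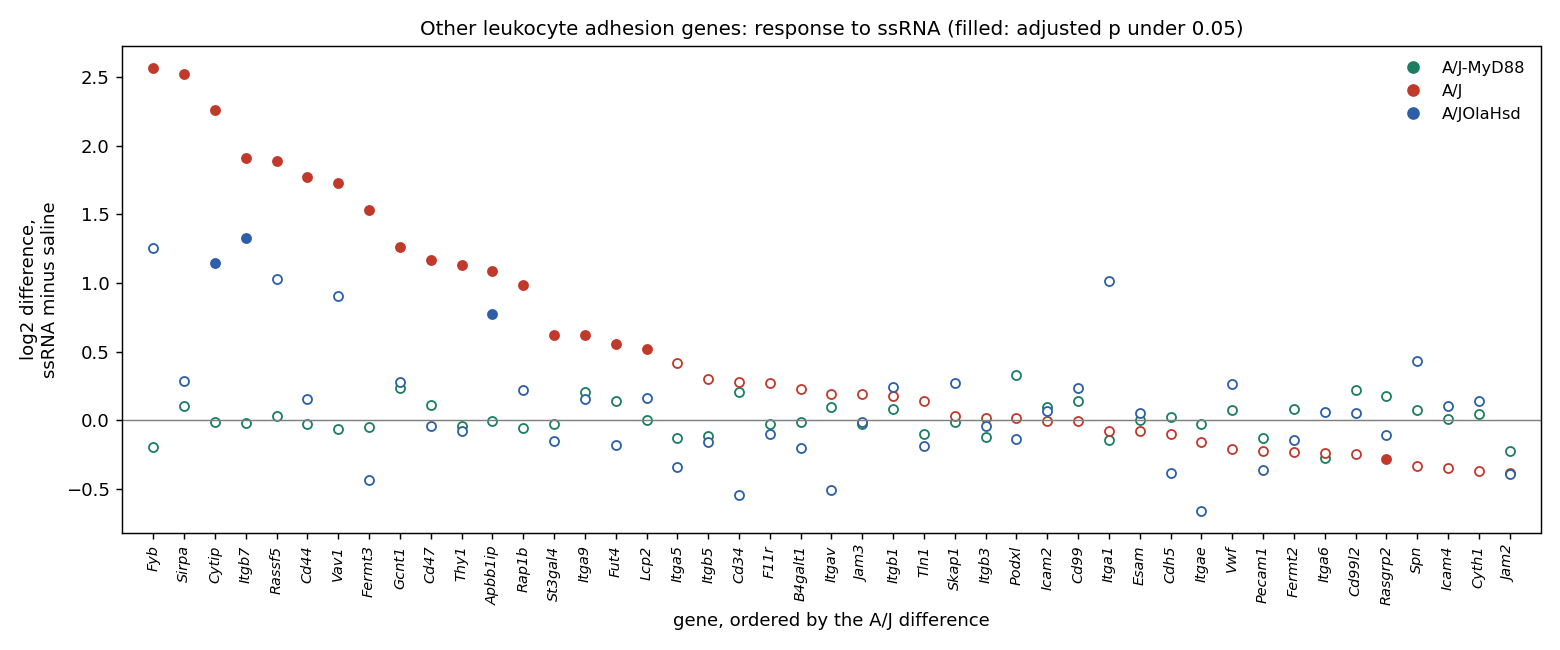
Log2 difference of ssRNA minus saline muscle for the 45 tested genes of the wider adhesion list in A/J-MyD88, A/J and A/JOlaHsd, ordered by the A/J difference and filled where the adjusted p was under 0.05. In A/J 17 genes are called higher and 1 lower, in A/JOlaHsd 3 are called higher, and in A/J-MyD88 none is called.

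Markers of leukocytes and macrophages also rose with ssRNA in A/J, where 12.4% of all genes rose. Of 5 markers of all leukocytes 5 rose in A/J, with a median of 2.69, and their summed intensity was 4390 to 5150 on A/J ssRNA arrays, against 480 to 915 on A/J saline arrays. In A/J-MyD88 the sum was 2200 to 2540 with ssRNA and 1840 to 2710 with saline, and in A/JOlaHsd 2330 to 2740 with ssRNA and 977 to 2460 with saline. Laptm5 (2.69 ± 0.31) and Cd52 (3.28 ± 0.22) were among those that rose in A/J. By group means Ptprc, the common leukocyte phosphatase, was at least 1.21-fold higher with ssRNA, a bound that leaves out the spread (fitted difference 0.48 ± 0.14, adjusted p 0.0247, limma), with 3 and 0 A/J arrays detected. In A/JOlaHsd 2 of these 5 markers rose, Cd52 (1.23 ± 0.25, adjusted p 0.0192, limma) and Cd53 (1.35 ± 0.28, 0.0208). Of the T and NK cell genes 2 of 7 rose there, Nkg7 (1.58 ± 0.17) and Klrd1 (1.61 ± 0.18), where 1.90% of all genes were called in either direction. The macrophage list rose in A/J for 9 of 10 tested genes (median 2.25), among them Lyz2 (3.40 ± 0.44) and Mrc1 (1.70 ± 0.31), and its sum was 4500 to 6700 with ssRNA, against 693 to 1070 with saline. In A/JOlaHsd 0 of these 10 were called.

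Leukocyte and macrophage markers also differed between strains, with the share of all genes called in the same direction given in brackets. The response of A/J exceeded that of A/JOlaHsd for 3 of 5 leukocyte and 9 of 10 macrophage markers (4.93%). The response of A/J-MyD88 lay below that of A/J for 4 of 5 and 8 of 10 (6.85%). In saline legs A/J-MyD88 exceeded A/J for 4 of 5 leukocyte and 6 of 10 macrophage markers (4.39%), with Lyz2 at 2.84 ± 0.45. In ssRNA legs A/J-MyD88 lay below A/J for 3 of 5 leukocyte and 5 of 10 macrophage markers (3.02%). It also lay below A/J there for 5 of 7 T and NK cell genes (3.02%). For this list the response of A/J-MyD88 lay below that of A/J for 4 of 7 (6.85%). Between saline legs of A/J-MyD88 and A/J 0 of the 7 were called, as between the responses of A/J and A/JOlaHsd. Between saline legs, A/J lay below A/JOlaHsd for 2 of 5 leukocyte and 6 of 10 macrophage markers (24.9%), with Lyz2 at -3.19 ± 0.45. Median scaling moved the median of all genes in this comparison to 0.762, and marker values under it are not given here. The part of these markers in the responses of the adhesion genes was not tested.

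The other blood cell lists in A/J stand beside a share of 12.4% of all genes that rose. All 3 tested neutrophil genes rose (median 0.91, S100a8 at 0.91 ± 0.23 and Csf3r at 1.28 ± 0.22), while S100a9, Cxcr2, Retnlg, Camp, Ngp and Ltf were detected on 0 arrays. Of the T and NK cell list 5 of 7 rose (median 0.83), with Klrd1 at 2.40 ± 0.17 and Prf1 at -0.08 ± 0.17, and Cd4, Cd8a and Gzmb were detected on 0 arrays. Among dendritic cell genes 3 of 4 rose, with Batf3 at 0.59 ± 0.17 and Zbtb46 at 0.07 ± 0.31, among mast cell genes 3 of 5 rose, with Kit at 0.68 ± 0.21 and Cpa3 at 0.72 ± 0.23, and of the B and plasma cell list Cd79b alone was tested and not called. For platelets, a source of P-selectin, 1 of 3 tested genes rose, Pf4 (2.06 ± 0.32), Itga2b stood at 0.06 ± 0.10, and Ppbp and Gp6 were detected on 0 arrays.

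Endothelium makes Icam1, Vcam1 and Selp, and its own markers stood as follows. Of 10 tested endothelial genes 0 rose and 1 fell in A/J, where 12.4% of all genes rose and 10.0% fell, so the 1 fall is near the background. The endothelial median was -0.11, beside -0.05 for all genes. The summed intensity of the 10 endothelial genes was 2870 to 3010 on A/J ssRNA arrays, against 2780 to 3390 on A/J saline arrays, with Egfl7 at -0.11 ± 0.22 and Esam at -0.08 ± 0.12. The gene that fell was Tie1, at -0.51 ± 0.18 (adjusted p 0.0468, limma). Of the remaining lists in A/J, fibroblast genes rose for 4 of 7, with Col1a1 at 1.45 ± 0.31 and Dcn at 0.32 ± 0.17, smooth muscle and pericyte genes fell for 2 of 6, with Abcc9 at -0.93 ± 0.18 and Acta2 at 0.31 ± 0.16, and muscle stem cell genes were called for 0 of 3, with Cdh15 at 0.13 ± 0.16 and Chodl at -0.25 ± 0.32. Of the 8 skeletal muscle genes 0 were called in A/J, with Mylpf at 0.02 ± 0.11 and Pvalb at 0.17 ± 0.10. In A/J-MyD88 no gene of the 13 cell type lists was called, where 0% of all genes were called.

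Patterns most like 3 of the genes were sought over all tested genes, as the smallest root-mean-square difference over the 17 arrays between log2 values each centred on the gene's own mean. For Vcam1, whose own spread was 0.50, the nearest were Armcx2 (0.175), Sfxn1 (0.213), Bok (0.214), Hcls1 (0.218) and Actn1 (0.235). For Itgb2, whose spread was 0.24, they were Batf (0.157), Ikbip (0.162), Zfp472 (0.166), Ube2z (0.169) and Insl6 (0.175). For Selp, with a spread of 0.32, they were Coq8b (0.189), Exog (0.19), Surf4 (0.194), Gna15 (0.203) and Creb3l1 (0.204). For Itgb2 and Selp these distances were a larger part of the gene's own spread than for Vcam1. The arrays share strain and signal level, which enters these distances.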

How the data were processed

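The deposited table held 1 intensity per probe and array, exported by the authors from GenomeStudio (per the submitters' processing notes, no version stated) and not normalized, with a detection p-value per probe and array that was deposited beside it. A second deposited table of normalized intensity served only as an alternative. No genome build is named for the probes. Per the labels' protocols, RNA was extracted with Trizol and made into biotinylated cRNA. In R 4.3.3 with limma 3.58.1, neqc corrected the background from the detection p-values, added an offset of 16 and quantile-normalized 17 arrays, giving log2 values. The filter kept 20825 of 45281 probes, those whose detection p was under 0.05 on 3 or more arrays, symbols were those of the platform annotation, and the probe with the highest mean stood for its gene, which gave 11233 genes. A model with 1 mean per group (lmFit, eBayes, 11 residual and 5.01 prior degrees of freedom) was fitted to all genes, and p values were two-sided and Benjamini-Hochberg adjusted over all genes of a comparison. The fit was also run on simulated data with independent noise, without pairing or a background floor, so that run does not vouch for the calls here. The ± of a difference is its standard error. The number of arrays limits the precision.

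The members and gene lists (58 adhesion genes and markers of 13 cell types) were chosen with earlier results of these data known. Named were all members, Dysf, Myd88 and Ptprc as checks, by size of change up to 6 called genes of the adhesion list in A/J, up to 3 called falls there and up to 4 called genes elsewhere (the 2 largest where none was called), up to 2 genes per cell type list by mean level, and the 5 nearest patterns of Itgb2, Vcam1 and Selp. Tie1, Cd53, Nkg7 and the undetected markers were named after their values were seen.

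Same-numbered ssRNA and saline arrays may come from the same animals. Their deviations from the group means correlated at 0.47, 0.171 and 0.169 in A/J-MyD88, 0.402, 0.435 and 0.137 in A/J, and -0.126 and -0.105 in A/JOlaHsd. The numbers may thus pair the arrays in the first 2 strains, but the labels do not say so. The main fit did not pair arrays, so its p values and standard errors leave any pairing out. Pairing by number entered only as an alternative, the replicate block, in all 3 strains. The alternatives were all 18 arrays, the replicate number as a block, median scaling, no background correction, no filter, the authors' normalized values, each strain normalized alone, only the compared arrays, the mean of a gene's probes, and each array left out.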

Additional observations from a re-analysis of the deposited data

Results flagged for a closer look

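For 3 of the genes the response to ssRNA differed between strains by the interaction term of the fit (limma, adjusted over all genes). The response of Icam1 in A/J exceeded that in A/JOlaHsd by 1.48 (log2, adjusted p 0.00407), that of Vcam1 by 1.60 (adjusted p 0.00893) and that of Selplg by 1.37 (adjusted p 0.0285), with 2 ssRNA arrays in A/JOlaHsd. Against the response of A/J, that of A/J-MyD88 differed by -0.952 for Icam1 (adjusted p 0.0109), by -1.08 for Vcam1 (adjusted p 0.0243) and by -2.48 for Selplg (adjusted p 0.000502). In A/J every ssRNA array lay above every saline array for these genes, 3 against 3, as for 20.6% of all genes. The Vcam1 call of A/J-MyD88 against A/J held under 13 of 21 alternatives. The Selplg call of A/J against A/JOlaHsd was lost with several single arrays left out, as given above. A/J-MyD88 minus A/J was 0.70 for Icam1 and 0.86 for Vcam1 in saline muscle. In ssRNA muscle it was -0.25 and -0.22, not called.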

How the results depend on the processing

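Most of the 968 values of the 8 genes under the alternatives had no call in the main fit to lose. Of the 968, 878 kept their side of the threshold, and 33 of these were uncalled values that changed sign. Of the rest, 59 lost a call, 29 gained one and 2 changed sign while called under the alternative. Both of the 2 were in saline muscle of A/J against A/JOlaHsd with median scaling, Icam1 at 0.61 and Vcam1, not called with quantile normalization, at 0.79, a scaling that moved the median of all genes there to 0.762, against -0.021. With all 18 arrays, the array without signal entering the normalization, 0 of the 8 genes were called in any comparison. Median scaling gave 8 called genes for the A/J response, 5 for each response difference and 2 for ssRNA muscle of A/J-MyD88 against A/J. Only the compared arrays gave 1 in saline muscle of A/J against A/JOlaHsd and 2 in ssRNA muscle of A/J-MyD88 against A/J. With each array left out in turn, the lowest and highest number called were 0 and 0 for the A/J-MyD88 response, 3 and 5 for A/J, 0 and 2 for A/JOlaHsd, 2 and 3 for each response difference, 1 and 4 in saline muscle of A/J against A/JOlaHsd, 1 and 3 in saline muscle of A/J-MyD88 against A/J, and 1 and 1 in ssRNA muscle. The replicate block changed the call of no member in any response, leaving 5 called in A/J. Over all genes, the A/J response called 2518 genes, and 220 to 3935 under the alternatives that keep the arrays of the comparison, the A/JOlaHsd response 213, and 287 to 525 with an array left out. With an array left out, the A/J response called 1537 to 2399 genes. The response difference of A/J and A/JOlaHsd called 850, and 5 to 1754 under the other alternatives. That of A/J-MyD88 and A/J called 1144, 582 to 1222 with an array left out and 25 to 2344 otherwise. In the same order, saline muscle gave 604, 180 to 528 and 15 to 1023 for A/J-MyD88 against A/J. It gave 5303, 4561 to 5504 and 822 to 7801 for A/J against A/JOlaHsd. ssRNA muscle gave 636, 186 to 390 and 18 to 1335. The cause of these changes was not tested, and signals near background limit Itgam, Itgb2, Itgal, Itga4 and Selp.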
